A study of Arabidopsis thaliana with 12 samples.

Results

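The 9 genes described here belong to the brassinosteroid pathway of Arabidopsis thaliana: DET2, DWF4, CPD, ROT3 and BR6ox2 for synthesis, BAS1 for inactivation, BRI1 for perception, and BES1 and BZR1 for the transcriptional response. They were chosen by locus ID, with earlier results of these data known. All 9 were among the 22028 genes listed in at least 1 of the 6 RNA tables. Seedlings 10 days old received 10 uM estradiol and were collected 5 hours later. The induced line (genotype GFP:BRC1ind, 3 RNA libraries) makes a GFP fusion of BRANCHED1 (BRC1), a TCP transcription factor of axillary buds, when estradiol is given. The control (brc1-2, 3 RNA libraries) is a BRC1 knock-out with the same estradiol treatment. The groups therefore differ in genotype and transgene together, no untreated induced line was among the samples, and the labels do not name the genetic background of the induced line, the promoter of its transgene or the number of lines behind it. A peak list from anti-GFP chromatin immunoprecipitation (ChIP-seq) of the induced line was used for binding. The libraries are of whole seedlings, so fewer cells of a type and less RNA per cell cannot be told apart in any value below. The labels do not say whether replicate libraries came from separate cultures, so p-values measure the spread between these libraries.

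Brassinosteroids are plant steroid hormones that promote cell elongation, vascular development and growth in light and dark. They are made from campesterol by the reductase DET2 and a set of cytochrome P450 enzymes, are perceived at the cell surface by the receptor kinase BRI1 with co-receptors of the SERK family, and act by switching off the kinase BIN2, which otherwise phosphorylates the transcription factors BZR1 and BES1. Active BZR1 represses the synthesis genes CPD and DWF4, so hormone level and enzyme expression are tied by feedback. TCP1, a relative of BRC1, is known to activate DWF4, and BES1 is known to take part in the control of BRC1 transcription in strigolactone signalling.

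The derived fragment numbers (pairs or reads assigned to assembled pieces, back-calculated from the confidence bounds) summed to between 33176994 and 53385759 per library. BRC1 (AT3G18550) checked the labels, at 3370, 3421 and 3625 FPKM after induction, against 1.34, 1.66 and 2.20 in the brc1-2 libraries. FPKM scales fragments by the length of the piece and the depth of the library. Of 9 root markers 4 were lower in the induced line (PRP3 and EXPA7 of root hairs, the endodermal CASP1 and the nitrate transporter NRT2.1), where 8.86% of all tested genes were. The summed FPKM of the 9 was 79.8 to 95.7 in the induced libraries and 155.7 to 207 in the brc1-2 libraries. The endodermal regulators SCR and SHR did not pass the test, with log2 fold changes of 0.07 and 0.44 (limma adjusted p = 0.676 and 0.0748). COBL9, PHO1 and SMB did not pass either, with log2 fold changes of -0.66, -0.54 and 0.14 (limma adjusted p = 0.28, 0.0717 and 0.8255). COBL9 had 4.62 FPKM on 22 fragments in induced library 2, against 1.58 FPKM on 131 in induced library 3. SMB had 36, 30 and 42 fragments in the induced libraries, against 152, 63 and 57 in brc1-2. A second test, voom on the derived fragments, called 7 of the 9 root markers and 1 of the 5 leaf markers in either direction. It called 21.2% of all tested genes. The summed FPKM of 5 leaf markers overlapped, with 23540 to 28010 in the induced libraries and 21880 to 31120 in brc1-2, and 1 of the 5 (LHCB2.1) was lower. All 9 root and all 5 leaf markers were listed in each library. Of 4 seed storage markers, SESA1 and CRU3 were at 0 throughout, and the summed FPKM was 0 in each induced library and 0 to 6.72 in brc1-2. The part of the marker shifts in the results on the pathway was not tested.

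The limma test called 4 of the 9 genes at an adjusted p of 0.05, with adjustment over 21038 tested genes. DET2 and DWF4 rose in the induced line, and BR6ox2 and BES1 fell. Over all tested genes 16.2% passed, 7.37% as higher and 8.86% as lower. The values of the induced libraries and the brc1-2 libraries did not overlap for any of the 9 genes, a state found in 38.9% of all tested genes. The median log2 fold change of the 9 genes was -0.23, against 0.04 for all tested genes. Each fold change compares log2(FPKM + 1) of the induced line with that of brc1-2, a scale that understates the change of low genes. A two-sided exact permutation test gave p = 0.1 for each of the 9 genes, the smallest value that 3 against 3 libraries allow.

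**Figure D1:**
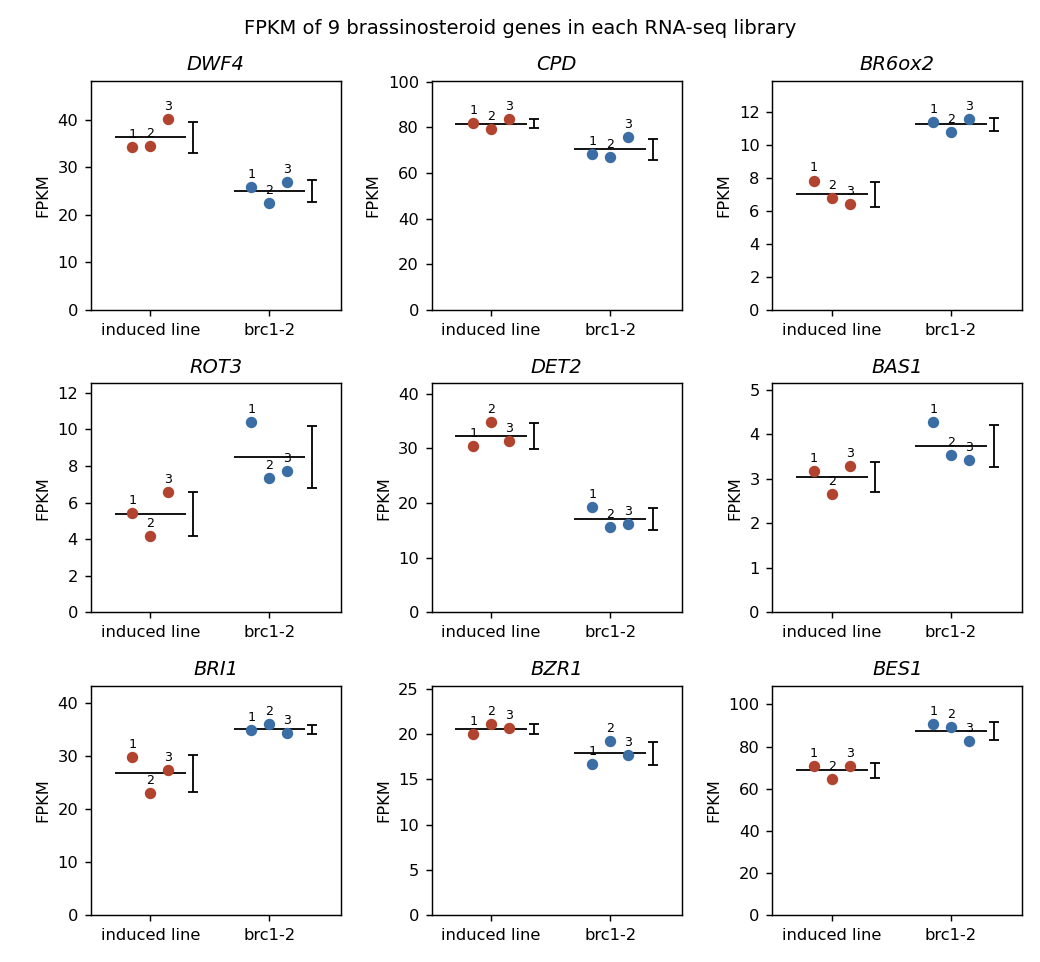
FPKM (vertical axes, starting at 0) of the 9 genes in the 3 induced and the 3 brc1-2 libraries, numbered by replicate, with the group mean as a line and the SD as a bar beside it. DET2, DWF4, CPD and BZR1 lie higher in all 3 induced libraries, and BR6ox2, ROT3, BAS1, BRI1 and BES1 lie lower in all 3.

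DET2 (AT2G38050) encodes the steroid reductase that acts early, before most of the P450 steps. It reached 30.4, 34.9 and 31.4 FPKM in libraries 1, 2 and 3 of the induced line, against 19.3, 15.5 and 16.2 in brc1-2 libraries 1, 2 and 3. Each induced library was above each brc1-2 library by a margin of at least 11.1 FPKM, and the values within a group spanned at most 4.51 FPKM. The means were 32.2 ± 2.36 in the induced line and 17.0 ± 2.00 in brc1-2 (SD, n = 3 each), a ratio of 1.89, and the log2 fold change of 0.89 (SE 0.10, limma adjusted p = 0.00425) was the largest of the 9. DET2 rested on 449 to 1437 fragments per library and kept its call under all 16 alternatives.

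DWF4 (AT3G50660, CYP90B1) encodes the side-chain hydroxylase whose step is widely regarded as rate limiting. Its FPKM was 34.2, 34.5 and 40.1 in the induced libraries, against 25.8, 22.5 and 26.8 in the brc1-2 libraries. The lowest induced value lay above the highest brc1-2 value, and induced library 3 stood above the other induced libraries. The means were 36.3 ± 3.32 in the induced line and 25.1 ± 2.28 in brc1-2, with a log2 fold change of 0.52 (SE 0.10, limma adjusted p = 0.0197). The call was lost without induced library 1, 2 or 3 or brc1-2 library 2, with limma adjusted p from 0.0546 to 0.0582 and log2 fold changes from 0.44 to 0.56.

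CPD (AT5G05690, CYP90A1) encodes a further P450 of the route and was the most abundant of the enzymes. It reached 82.0, 79.3 and 83.5 FPKM in the induced libraries, against 68.2, 67.0 and 75.7 in the brc1-2 libraries. The groups did not overlap, but the log2 fold change was only 0.21 (95% interval 0.05 to 0.38) and it did not pass the test (limma adjusted p = 0.0936). Without brc1-2 library 3, which held the highest of the brc1-2 values, the log2 fold change was 0.27 and passed (limma adjusted p = 0.0373).

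ROT3 (AT4G36380, CYP90C1) encodes a side-chain hydroxylase known for its effect on leaf length. Its FPKM was 5.43, 4.16 and 6.59 in the induced libraries, against 10.4, 7.36 and 7.70 in the brc1-2 libraries. The spread within each group was wide relative to the gap of 0.77 FPKM between the highest induced and the lowest brc1-2 library. The log2 fold change of -0.57 (SE 0.19) was similar in size to that of BR6ox2 but did not pass the test (limma adjusted p = 0.0982), here or under any of the 16 alternatives.

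BR6ox2 (AT3G30180, CYP85A2) encodes the oxidase of the last steps, which yield castasterone and brassinolide. Its FPKM was 7.83, 6.76 and 6.40 in the induced libraries, against 11.4, 10.8 and 11.5 in the brc1-2 libraries. The brc1-2 libraries lay close together, and each induced library was below them. The means were 7.0 ± 0.744 in the induced line and 11.2 ± 0.406 in brc1-2, giving a log2 fold change of -0.62 (SE 0.09) with a limma adjusted p of 0.00866. BR6ox2 kept its call under all 16 alternatives. Of the 5 synthesis enzymes, the 3 that passed went both ways, with DET2 and DWF4 higher and BR6ox2 lower.

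BAS1 (AT2G26710, CYP734A1) encodes a P450 that inactivates brassinosteroids. It had the lowest level of the 9 genes, at 3.18, 2.66 and 3.30 FPKM in the induced libraries, against 4.29, 3.53 and 3.42 in the brc1-2 libraries. The highest induced value and the lowest brc1-2 value differed by 0.12 FPKM. The log2 fold change was -0.23 (95% interval -0.57 to 0.11, limma adjusted p = 0.318), measured on 158 to 411 fragments per library.

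**Figure D2:**
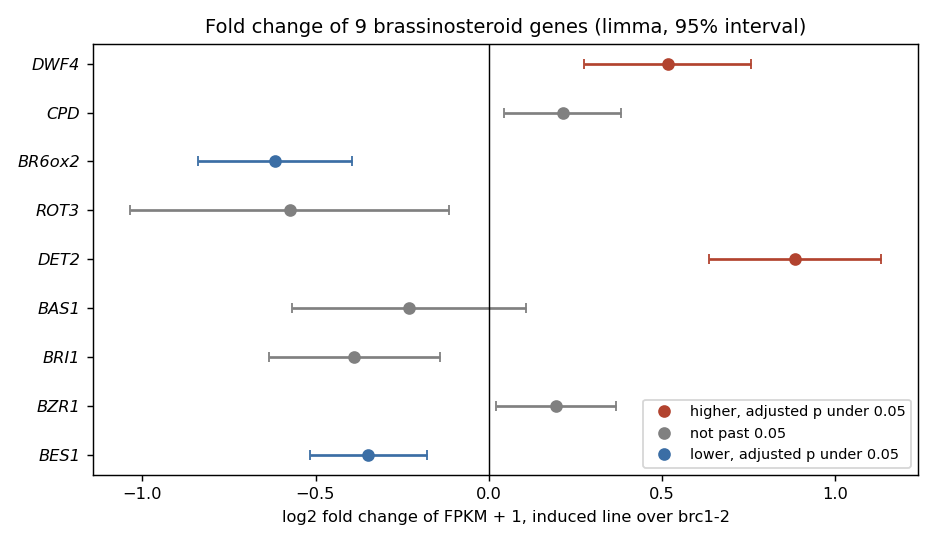
Log2 fold change of FPKM + 1, induced line over brc1-2 (horizontal axis), with the 95% interval of limma before adjustment for multiple tests. DET2 (0.89) and DWF4 (0.52) are marked as higher, BR6ox2 (-0.62) and BES1 (-0.35) as lower, and the interval of BAS1 alone includes 0.

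BRI1 (AT4G39400) encodes the receptor kinase that binds brassinosteroids. Its FPKM was 29.8, 23.0 and 27.2 in the induced libraries, against 34.8, 35.9 and 34.3 in the brc1-2 libraries. The brc1-2 libraries spanned 1.67 FPKM, and induced library 2 stood lowest. At a log2 fold change of -0.39 (SE 0.10), it did not pass the test (limma adjusted p = 0.0518). It passed under 5 of the 16 alternatives, with limma adjusted p from 0.0356 to 0.0486, and in none of the 6 fits that left out 1 library.

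BES1 and BZR1 encode closely related transcription factors of the response, and how reads that match both were assigned is not stated in the sources used here. BES1 (AT1G19350, named BZR2 in the tables) reached 70.6, 64.7 and 70.5 FPKM in the induced libraries, against 90.6, 89.4 and 82.7 in the brc1-2 libraries. The groups were separated by 12.1 FPKM. The means were 68.6 ± 3.41 in the induced line and 87.6 ± 4.27 in brc1-2, with a log2 fold change of -0.35 (SE 0.07, limma adjusted p = 0.0228). The call was lost without any 1 library other than brc1-2 library 3 (limma adjusted p from 0.0654 to 0.0807, log2 fold changes from -0.37 to -0.31) and with the replicate number as a block (limma adjusted p = 0.055). BZR1 (AT1G75080) had 20.1, 21.1 and 20.7 FPKM in the induced libraries, against 16.7, 19.3 and 17.7 in the brc1-2 libraries. It thus lay on the other side from BES1, with a log2 fold change of 0.20 (95% interval 0.02 to 0.37) that did not pass the test (limma adjusted p = 0.125).

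Ordered by FPKM, which is per length, the induced libraries had CPD highest, then BES1, DWF4, DET2, BRI1, BZR1, BR6ox2, ROT3 and BAS1. In this order DWF4 and DET2 overlapped between libraries, as did BR6ox2 and ROT3, and the other neighbours did not. In brc1-2 the order was BES1, CPD, BRI1, DWF4, BZR1, DET2, BR6ox2, ROT3 and BAS1, and among neighbours only BZR1 and DET2 overlapped. CPD and BES1 exchanged the first place between the groups, and DET2 stood above BRI1 and BZR1 in the induced line and below both in brc1-2. The highest induced value belonged to library 1 for 3 genes, library 2 for 2 and library 3 for 4, and the highest brc1-2 value to library 1 for 4, library 2 for 2 and library 3 for 3. Induced library 2 and brc1-2 library 2 each held the lowest value of their group for 5 genes.

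The values of each gene came from 1 assembled piece in every library, on the first transcript model. The longest piece exceeded the shortest by a factor of at most 1.07 (ROT3, 1949 to 2094 bases) over the 6 libraries. Summing, weighting by length or taking the highest piece therefore gives the same FPKM for these 9 genes, and only the other genes in the fit differ between those settings.

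**Figure D3:**
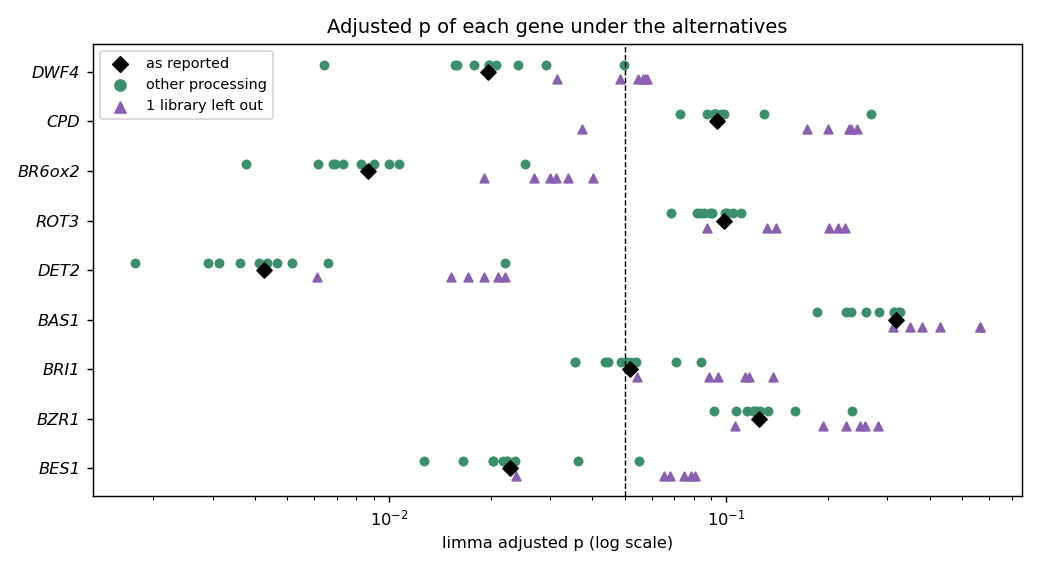
Limma adjusted p (horizontal log axis) of each of the 9 genes as reported, under 10 other processing choices and in 6 fits that each leave out 1 library, with the threshold of 0.05 as a dashed line. DET2 and BR6ox2 stay left of the line throughout, and ROT3, BAS1 and BZR1 stay right of it.

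Binding was read from the deposited list of 4227 anti-GFP peaks, which gives positions without a score, so no peak could be ranked. A peak was assigned to a gene when its midpoint lay in the annotated chromosome row of that gene or within a set distance of it. The tables give no strand, so the 5′ and 3′ sides of a gene could not be separated. Within 1000 bp, 4 of the 9 genes had a peak (DWF4, CPD, BAS1 and BES1), against 16.3% of 20686 tested genes with a position. Within 3000 bp there were 7 of 9 (ROT3, BRI1 and BZR1 in addition), against 27.7%. Counting any overlap in place of the midpoint gave 5 of 9 within 1000 bp (17.7% of tested genes) and 7 of 9 within 3000 bp (28.7%), and peaks of at least the median width gave 3 of 9 (DWF4, CPD and BAS1, against 8.32%). A limit of 500 bp kept the same 4 genes, against 11.9%. Coordinates are those of the files (build TAIR10, per the submitters' processing notes), counted from 1.

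DWF4 (chromosome 3, 18814140 to 18817244) had 3 peaks. The first, at 18814581 to 18815036, lay inside the gene row, the second, at 18817654 to 18818193, had its midpoint 679 bp beyond the higher-coordinate end, and the third, at 18818977 to 18819922, had it 2205 bp beyond that end. No other gene row lay within 5926 bp of any of these midpoints. CPD (chromosome 5, 1702688 to 1706787) had 1 peak inside its row, at 1704790 to 1705454. BAS1 (chromosome 2, 11380492 to 11383612) had 1 peak across the lower-coordinate end of its row, at 11380129 to 11380640. BES1 (chromosome 1, 6688522 to 6690414) had 1 peak across the lower-coordinate end, at 6688364 to 6688725, and a further peak at 6687002 to 6687464 whose midpoint lay 1289 bp from BES1 and 117 bp from AT1G19340.

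The peaks near ROT3, BRI1 and BZR1 were farther away. The midpoint of the peak at 17193227 to 17193537 on chromosome 4 lay 1065 bp from ROT3 (17187528 to 17192317) and 1206 bp from AT4G36390. The peak at 18322761 to 18323002 on chromosome 4 lay 1780 bp from BRI1 (18324661 to 18328826), with no other row within 4739 bp. The peak at 28183365 to 28183635 on chromosome 1 lay 2004 bp from BZR1 (28185504 to 28188075) but inside the row of AT1G75060. DET2 (chromosome 2, 15921136 to 15922313) and BR6ox2 (chromosome 3, 11810737 to 11813765) had their nearest peaks 15546 bp and 85424 bp away, against a median of 8566 bp for all tested genes with a position.

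Set beside the RNA values, the genes that passed the test fell on both sides. DWF4 (higher) and BES1 (lower) had a peak within 1000 bp, and DET2 (higher) and BR6ox2 (lower), the genes with the largest fold changes of the 9, had none within 3000 bp. CPD and BAS1 had a peak within 1000 bp and did not pass the test. No test was made of peaks against fold changes over 9 genes.

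**Figure D4:**
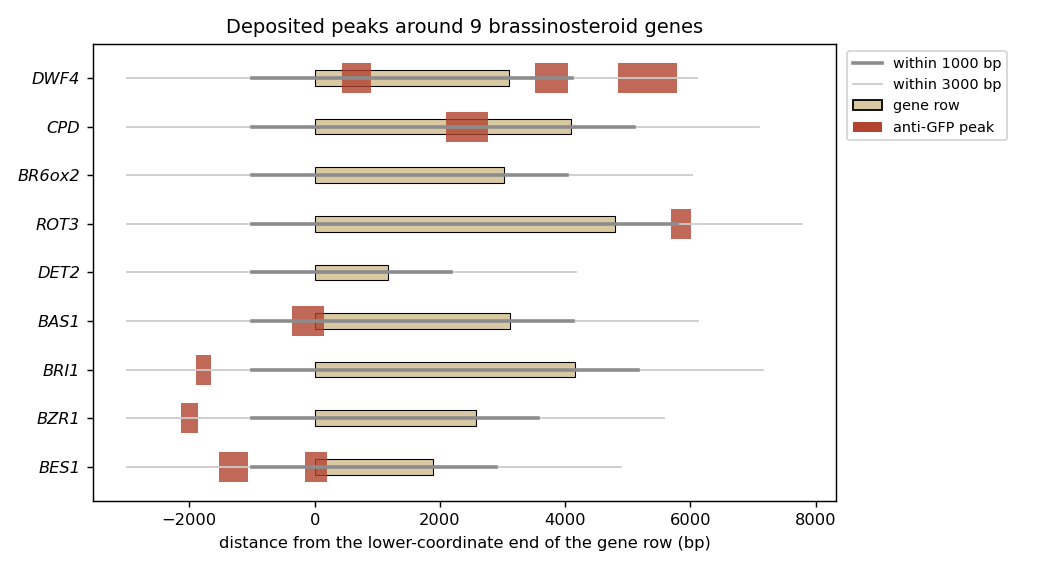
Deposited anti-GFP peaks (red) drawn to scale around the gene rows (tan) of the 9 genes, in bp from the lower-coordinate end of each row, with the ranges of 1000 and 3000 bp as grey lines. DWF4 has 3 peaks, BES1 has 2, DET2 and BR6ox2 have none in range.

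The rest of the pathway was read from 70 further genes in lists by role, of which 65 were tested. Of these, 13 passed, where 16.2% of all tested genes did, 5 as higher and 8 as lower in the induced line, with a median log2 fold change of -0.06. ST4A, CDG1, BSU1, AT4G12810 and CESTA did not pass the filter on low values. The 10 genes of the sterol route that supplies campesterol had no gene past the threshold in limma and 4 with an unadjusted p under 0.05, where 30.7% of all tested genes had one. Voom on the derived fragments called 1 of the 10, against 21.2% of all tested genes. DWF1, the sterol reductase with the highest level of that list, averaged 225 ± 9.70 FPKM in the induced line and 203 ± 30.4 in brc1-2 (limma adjusted p = 0.435). Neither of the other 2 synthesis enzymes passed, 0 had an unadjusted p under 0.05, and voom called 0, beside the same 30.7% and 21.2% of all tested genes. CYP90D1, which overlaps ROT3 in function, had 9.59 ± 0.951 FPKM in the induced line and 10.0 ± 0.730 in brc1-2. CYP85A1, the relative of BR6ox2, had 0.878 and 0.964 FPKM in induced libraries 1 and 3 and was not listed in induced library 2 (taken as 0). In the brc1-2 libraries it had 1.61, 3.49 and 1.15 FPKM, on 115, 37 and 67 fragments, so its highest FPKM had the fewest fragments of that group. CYP85A1 reached 1 FPKM only in the brc1-2 libraries and met the filter through them alone. Its lower level in the induced line therefore cannot be read apart from the filter. The log2 fold change was -0.92, -0.66 with pieces weighted by length and -2.87 with voom. None of 7 tested inactivation genes passed in limma, 2 had an unadjusted p under 0.05 (30.7% of all tested genes), and voom called 1 (21.2%). The acyltransferase BAT1, the most abundant of them, had 19.2 ± 1.23 FPKM in the induced line and 26.1 ± 8.28 in brc1-2 (limma adjusted p = 0.297). ST4B, a sulfotransferase gene of the same list named after its values were seen, had 3.67, 2.15 and 3.31 FPKM in the induced libraries, against 33.1, 12.2 and 5.996 in the brc1-2 libraries. The groups did not overlap, and the brc1-2 libraries were widely spread. Its log2 fold change of -1.88 (SE 0.56) was the lowest of the 65 genes and did not pass the test (limma adjusted p = 0.0783). Without brc1-2 library 3 it was -2.41 and passed (limma adjusted p = 0.0307).

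Between BRI1 and the transcription factors, 3 of 20 tested genes passed, where 16.2% of all tested genes did. SERK2, a co-receptor kinase, averaged 18.9 ± 0.669 FPKM in the induced line and 13.2 ± 1.55 in brc1-2 (log2 fold change 0.49, limma adjusted p = 0.0208). BSK6, a receptor-associated signalling kinase, had 10.8 ± 0.376 in the induced line and 16.3 ± 2.00 in brc1-2 (log2 fold change -0.55, limma adjusted p = 0.0156). BIN2, the kinase that inhibits BZR1 and BES1, had 73.7, 70.5 and 80.7 FPKM in the induced libraries, against 99.6, 95.4 and 109 in the brc1-2 libraries. All 3 induced libraries lay below all 3 brc1-2 libraries, with a log2 fold change of -0.43 (SE 0.08, limma adjusted p = 0.0207). The BIN2 relative SK23 had 78.3 ± 3.15 in the induced line and 76.9 ± 2.32 in brc1-2 (limma adjusted p = 0.804), and BSK1, the most abundant of the reception genes that did not pass, had 41.1 ± 1.17 in the induced line and 37.7 ± 2.49 in brc1-2 (limma adjusted p = 0.276). SERK2 lost its call without induced library 1, 2 or 3 or brc1-2 library 2 (limma adjusted p from 0.0579 to 0.0824), BSK6 without induced library 1 or 2 (0.0604 to 0.0658), and BIN2 without induced library 1 or 2 or brc1-2 library 1 (0.0543 to 0.0863).

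Among the factors and partners of BZR1 and BES1, 5 of 14 tested genes passed, beside 16.2% of all tested genes. BEH1 and BEH2, homologues of BZR1, went opposite ways. BEH1 had 4.50, 4.26 and 4.96 FPKM in the induced libraries, against 13.3, 8.59 and 9.51 in brc1-2 (log2 fold change -1.02, limma adjusted p = 0.0117), and BEH2 had 45.8, 43.3 and 45.5, against 32.9, 31.6 and 36.04 in brc1-2 (0.41, limma adjusted p = 0.0136). BEH2 had 2 peaks within 1000 bp. BEH1 had none in that range and a peak whose midpoint lay 2379 bp away. The homologue BEH4 averaged 9.90 ± 0.503 in the induced line and 12.5 ± 0.653 in brc1-2 (log2 fold change -0.31, limma adjusted p = 0.0379). MYBL2, a repressor that acts with BES1, had 17.7 ± 1.32 in the induced line and 30.3 ± 8.12 in brc1-2 (limma adjusted p = 0.0471), and REF6, a histone demethylase that binds BES1, had 11.6 ± 0.892 in the induced line and 8.16 ± 0.444 in brc1-2 (limma adjusted p = 0.0171). IWS1, a further partner of BES1 and the most abundant of those that did not pass, had 56.2 ± 0.858 in the induced line and 49.3 ± 0.619 in brc1-2 (limma adjusted p = 0.0629). BEH1 kept its call under all 16 alternatives. BEH2 and REF6 lost theirs without induced library 1 or 3 (limma adjusted p from 0.0564 to 0.0647), and BEH4 and MYBL2 without any 1 library other than brc1-2 library 3 (0.06 to 0.136). MYBL2 lost its call under 10 of the 16 alternatives in all, BEH4 under 6.

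Of 12 genes known to respond to brassinosteroids, 5 passed, 2 as higher and 3 as lower, against 16.2% of all tested genes. The median log2 fold change of the 12 genes was -0.45, against 0.04 for all tested genes. The list mixes genes that the hormone induces with genes that it represses, so this median gives no direction of the hormone response. EXO, a cell wall protein gene induced by the hormone, had 249.9, 261.6 and 218.6 FPKM in the induced libraries, against 68.5, 108 and 92.9 in the brc1-2 libraries, the largest rise of the 65 genes (log2 fold change 1.45, limma adjusted p = 0.00509). TCH4, a xyloglucan-modifying enzyme also induced by touch, had 217 ± 18.3 in the induced line and 128 ± 31.4 in brc1-2 (log2 fold change 0.78, limma adjusted p = 0.0339). SAUR15 and IAA19 are induced by auxin as well as by brassinosteroids, and both were lower. SAUR15 stood at 2.41, 3.88 and 3.09 FPKM after induction, against 14.8, 9.32 and 10.3 in brc1-2 (log2 fold change -1.59, limma adjusted p = 0.00607), from as few as 23 fragments. IAA19 had 5.44 ± 0.294 in the induced line and 9.18 ± 1.66 in brc1-2 (limma adjusted p = 0.0241). BZS1, a zinc finger gene that the hormone represses, had 5.66 ± 0.352 in the induced line and 10.5 ± 1.02 in brc1-2 (log2 fold change -0.79, limma adjusted p = 0.00514). The most abundant of those that did not pass was the growth regulator HBI1, at 50.8 to 74.5 FPKM in the induced libraries and 63.8 to 103 in the brc1-2 libraries (limma adjusted p = 0.482). EXO, SAUR15 and BZS1 kept their calls under all 16 alternatives. TCH4 lost its call without any 1 library other than brc1-2 library 3 (limma adjusted p from 0.082 to 0.115) and with median-of-ratios scaling, and IAA19 without any induced library or brc1-2 library 3 (0.0505 to 0.0859).

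**Figure D5:**
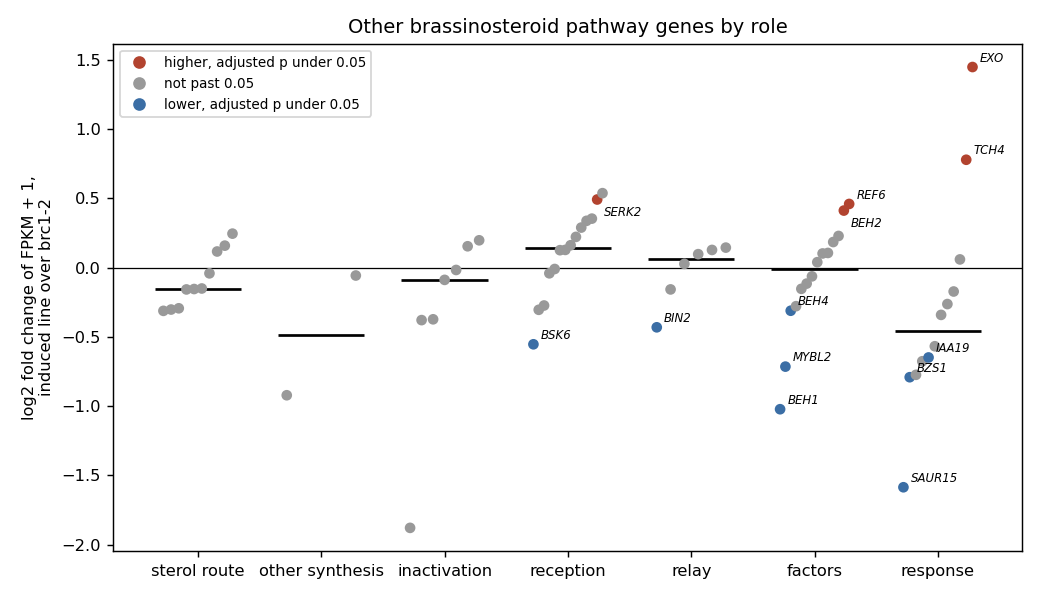
Log2 fold change of FPKM + 1, induced line over brc1-2 (vertical axis), of the 65 other pathway genes tested, grouped by role, with the median of each role as a line. The named genes are the 13 that passed an adjusted p of 0.05, and EXO (1.45) and SAUR15 (-1.59) lie at the 2 ends of the response genes.

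Of the 68 further genes with a position, 22 had a peak within 1000 bp (32.4%, against 16.3% of tested genes with a position) and 35 within 3000 bp. By call, a peak within 1000 bp was found at 3 of 5 higher genes (BEH2, EXO and TCH4), at 2 of 8 lower genes (SAUR15 and IAA19) and at 17 of 52 that did not pass. BIN2 and BEH4, both among the 8 lower genes, have no position and could not be scored. They count here as without a peak, so 2 of 8 is a lower bound.

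The tested genes most like DWF4, CPD and BAS1 over the 6 libraries were found by the Euclidean distance of their centred log2(FPKM + 1) values. For DWF4 they were S6K2 (AT3G08720, distance 0.10) and AT5G62570 (0.11), against a median distance of 0.81 over all tested genes. For CPD they were AT4G16580 (0.05) and AT1G53030 (0.06), against a median of 0.54. For BAS1 they were KUP10 (AT1G31120, 0.06) and ILL2 (AT5G56660, 0.09), against a median of 0.61.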

How the data were processed

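RNA-seq tables of 6 libraries and 1 ChIP-seq peak list were used. The authors deposited FPKM values with their confidence limits, in tables that have Cufflinks column names per the file headers. Bowtie, TopHat, Cuffdiff, Bowtie2 and MACS2 and the build TAIR10 are listed in the submitters' processing notes, without role or version. The peak list is, by its name, an intersection of anti-GFP libraries 1 and 2. It holds start and end positions by the authors and no score. Input and anti-GFP library 3 were not analysed here. All 33147 annotated chromosome rows are at 0 in every table, so FPKM came from assembled pieces named by transcript, summed per gene, with unlisted genes taken as 0. The smallest piece held about 9.6 fragments, derived from the upper confidence bound.

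The filter kept 21038 genes that reached 1 FPKM in 3 or more of the 6 libraries, and these were fitted as log2(FPKM + 1) with limma 3.58.1 (lmFit, eBayes with trend) in R 4.3.3, induced line over brc1-2, without covariates, and adjusted by Benjamini and Hochberg. The fit was tested on simulated data with a single spread setting for all genes and changes larger than those of the 9 genes. That run does not show how well changes of their size are found. Python 3.11.15, numpy 2.4.6, pandas 2.3.3 and matplotlib 3.10.9 were used. Groups came from sample titles. Named genes were the 9 members, BRC1, each further pathway gene past 0.05, the most abundant of each role that did not pass, and the 2 genes nearest to DWF4, CPD and BAS1; ST4B and CYP85A1 were added after their values were seen. Members and lists were chosen with earlier results of these data known. Symbols came from RefSeq (TAIR10.1), and no coordinates of it were used. Promoter motifs and sequences were not analysed here. The alternatives were other pseudocounts (0.5 and 5), filters, scaling, piece summaries, voom on derived fragments, no trend, a replicate block, leaving out each library, and other peak distances.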

Additional observations from a re-analysis of the deposited data

How the results depend on the processing

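None of the 9 pathway genes changed direction under the alternatives run (16 for each, 15 for BAS1, which fails the filter at an FPKM of 5), and DET2 and BR6ox2 passed 0.05 in each. BRI1 (log2 fold change -0.39) passed with a filter at an FPKM of 5 (-0.39), with pieces weighted by length (-0.39), with the highest piece only (-0.39), with voom on derived fragments (-0.39) and with median-of-ratios scaling (-0.43); in the filter and piece settings its own FPKM is the same and the other genes in the fit differ. Across the 6 fits that each left out 1 library, the log2 fold change of DWF4 ran from 0.44 to 0.57, of CPD from 0.18 to 0.27 and of BES1 from -0.39 to -0.31. The number of the 9 genes past 0.05 ran from 2 to 5 in these fits (1 to 3 higher, 1 to 2 lower), and of the other pathway genes from 4 to 16 (1 to 5 higher, 3 to 11 lower). The number of all genes past 0.05 ran from 1609 to 2827 (716 to 1354 higher, 893 to 1473 lower), in place of 3413 (1550 and 1863); it was 1609, 1738 and 2006 without induced libraries 1, 2 and 3 and 2134 without brc1-2 library 2. Fewer samples are part of each such fit. Within 3000 bp, 7 of the 9 genes had a peak in place of 4, since the range is wider. With the replicate block, 2989 genes passed and BES1 did not (-0.35, limma adjusted p = 0.055), which left 1 of the 9 genes lower; BEH4 and MYBL2 also lost their calls. The pairs of libraries with 1 number had deviations with correlations of 0.0824, 0.0597 and 0.193, and 4 of 6 libraries correlated best with their own number. The labels name no batch, and the main fit used no block. Whether libraries with the same number were handled together was not tested. For the 29 other named genes, 407 of 460 comparisons left the call as it was, with 48 lost calls, 2 gained calls and 3 changes of sign in genes that had not passed: SK23 with median-of-ratios scaling (-0.0158) and without induced library 1 (-0.0024), and CYP90D1 without induced library 1 (0.0003; its other fits without 1 library reached -0.1264). CYP85A1 fails the filter at an FPKM of 5 and in the fits without a brc1-2 library. Its highest value was 3.49 FPKM, and it reached 1 FPKM only in the 3 brc1-2 libraries. The cause of the changed calls and signs was not tested. With derived fragments taken as independent counts, the lowest chi-square per degree of freedom between 2 libraries of a group was 16.6, and each library was counted as 1 sample. Motif searches and their alternative were not run. Depth limits BAS1 most among the 9 genes, with as few as 158 fragments in a library. Other genes read above had fewer, such as SAUR15 (23 fragments) and CYP85A1 (0 in induced library 2). The lowest numbers of root markers were 22 fragments for COBL9, 30 for SMB, 41 for EXPA7, 44 for PRP3 and 50 for NRT2.1.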
